A study of Mus musculus with 18 samples.

Results

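The genes examined were the PDGF family as it is encoded in the mouse genome: the receptor genes Pdgfra and Pdgfrb and the ligand genes Pdgfa, Pdgfb, Pdgfc and Pdgfd. They were taken by name from a table of read counts for 48709 genes, and all 6 were among the 13702 genes that passed a filter on low counts. The same names were looked up in a table of RNAs precipitated with IMP2, an RNA-binding protein whose gene is Igf2bp2. All libraries came from C57BL/6 mouse embryonic fibroblasts (MEFs). For RNA-seq there were 3 libraries in each of 4 groups: Imp2 siRNA, control siRNA (labelled Mock), Imp2 siRNA with interleukin-17 (IL-17), and control siRNA with IL-17. The medium was changed 24 h after transfection and IL-17, an inflammatory cytokine, was given at 200 ng/mL for 8 h or left out. For RNA immunoprecipitation (RIP-seq), lysates of MEFs treated for 3 h with 200 ng/mL IL-17 were precipitated with anti-IMP2 antibody (3 libraries) or normal rabbit IgG (3 libraries), and no siRNA is named for them. The labels do not say whether the libraries came from separate cultures or embryos, so p-values measure the spread between these libraries, which may be technical, and no measure of IMP2 or PDGF protein was used here.

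PDGF ligands are secreted dimers that draw together a pair of receptor tyrosine kinases on mesenchymal cells, and the phosphorylated receptors then recruit adaptors and enzymes of the Ras, phosphatidylinositol 3-kinase and phospholipase C pathways. PDGF-A and PDGF-C act mainly on the alpha receptor, PDGF-B on both receptors, and PDGF-D mainly on the beta receptor. In connective tissue this signalling is best known for driving the growth, migration and matrix production of fibroblasts and the recruitment of pericytes. IMP2 belongs to a family of proteins that bind mRNA, recognise the m6A mark and can stabilise their targets. The study's question was the part of IMP2 in inflammation driven by IL-17.

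Libraries held 33841054 to 44433699 counts. Levels are given in CPM, read counts scaled by library totals that were adjusted with TMM factors. Igf2bp2, the siRNA target, had 18.4 to 28.2 CPM in the 6 Imp2 siRNA libraries and 134 to 167 CPM in the 6 control siRNA libraries. It fell by 2.77 on the log2 scale (SE 0.165, adjusted p = 2.71e-06) in cells without IL-17, and had a log2 fold change of -2.70 (SE 0.164, adjusted p = 3.01e-06) after the cytokine. Library titles carried the prefix RB160 (replicate 1 of each group) or NA (replicates 2 and 3), and the sources used here do not say what the prefix stands for. The prefix separated libraries far more than the treatments did: 69.3% of tested genes differed between prefixes (34.8% higher in RB160 and 34.5% lower), as did 5 of the 6 PDGF genes (2 higher and 3 lower), and a reduced chi-square between replicates was 165 to 233 across prefixes, against 9.11 to 16.9 within the NA prefix. The prefix was therefore a term of the model, and values are given per library or within a prefix. Of the fibroblast markers, Col1a1, Col1a2, Fn1 and Vim were abundant in every library (the lowest level was 2513 CPM, of Vim), while Dcn (0.556 to 60.1 CPM), Lum (0 to 7.00 CPM) and Thy1 (0.0714 to 5.90 CPM) were low in part of them.

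Across the Imp2 siRNA comparisons both receptor genes fell, and 3 of 4 ligand genes rose without IL-17 and 2 of 4 with it. Without IL-17, Pdgfra and Pdgfrb fell and Pdgfa, Pdgfb and Pdgfc rose, so that 5 of 6 genes passed the test where 32.4% of all tested genes did (16.4% lower and 16.1% higher). With IL-17, Pdgfra and Pdgfrb fell and Pdgfa and Pdgfb rose, 4 of 6 against 33.3% of all tested genes (16.6% lower and 16.7% higher). Among NA libraries the siRNA groups were apart for each of the 6 genes in both comparisons, as they were for 64.5% of all tested genes without IL-17 and 68.3% with it. The log2 ratio had the same sign in both prefixes for 6 of 6 genes without IL-17 and 5 of 6 with it (all but Pdgfd), against 72.6% of all tested genes in each comparison. The ligand genes had a median log2 change of 0.63 without and 0.50 with IL-17, and all tested genes a median of -0.00036 and -0.0067. With the prefix left out of the model, 0 of 6 genes passed edgeR's test in either comparison.

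**Figure D1:**
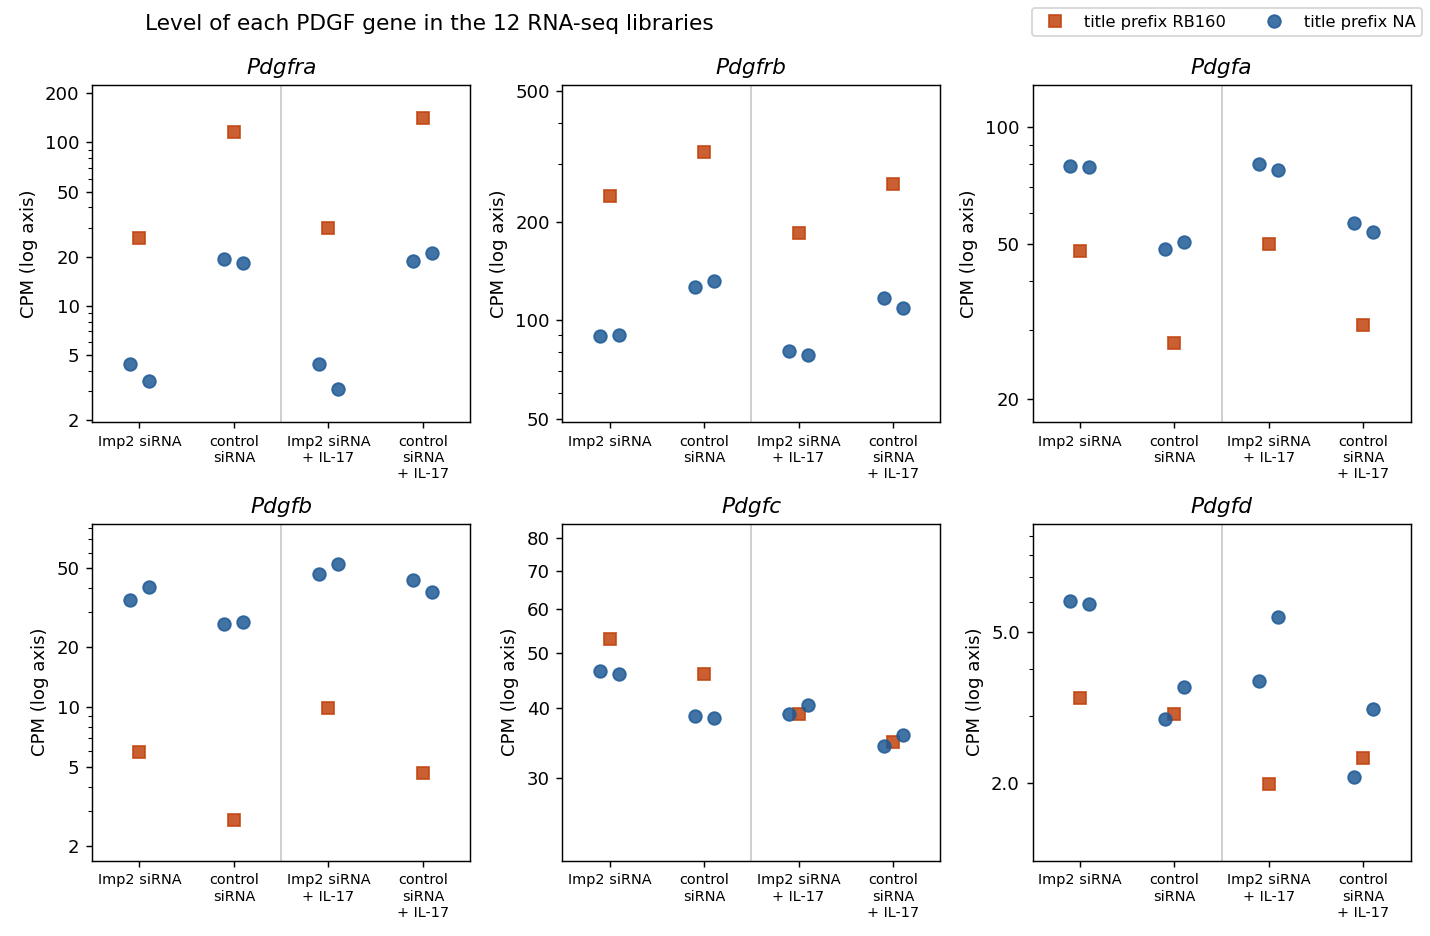
Level of each PDGF gene, in CPM on a log axis, in all 12 RNA-seq libraries, with squares for libraries of title prefix RB160 (1 a group) and circles for prefix NA (2 a group). In libraries of the same prefix, Pdgfra and Pdgfrb lie lower and Pdgfa lies higher with Imp2 siRNA, both without and with IL-17. For Pdgfra, Pdgfrb and Pdgfb the prefixes are further apart than the siRNA groups, and for Pdgfa they are about as far apart.

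Pdgfra, the gene of the alpha receptor (ENSMUSG00000029231, chromosome 5, 75152292 to 75198215, mm10, plus strand), changed most. Without IL-17 it had 26.0, 4.39 and 3.47 CPM in Imp2 siRNA libraries 1 to 3, against 116, 19.3 and 18.3 CPM in control siRNA libraries 1 to 3. With IL-17 it had 30.1, 4.38 and 3.10 CPM in Imp2 siRNA libraries, against 141, 18.9 and 21.0 CPM in control siRNA libraries. Within each prefix every Imp2 siRNA library was lower than every control siRNA library, although the groups overlapped across prefixes because the RB160 library with Imp2 siRNA lay above the NA libraries with control siRNA. Pdgfra fell 4.69-fold without IL-17 (log2 fold change -2.23, SE 0.111, adjusted p = 3.32e-08) and 4.95-fold with it (-2.31, SE 0.110, adjusted p = 2.08e-08). The order of the group means was control siRNA with IL-17 (60.2 ± 69.7 CPM), control siRNA (51.2 ± 56.1 CPM), Imp2 siRNA with IL-17 (12.5 ± 15.2 CPM) and Imp2 siRNA (11.3 ± 12.7 CPM; SD, n = 3 each, the SD being mostly the difference between prefixes). The neighbours in that order that differ only by IL-17 did not differ beyond their spread.

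The log2 ratio of Pdgfra was nearly the same size within each prefix. Without IL-17 it was -2.16 in RB160 (1 library a group) and -2.27 in NA libraries (2 a group), and with IL-17 it was -2.23 in RB160 and -2.44 in NA. A term for a different siRNA effect in the prefixes was 0.14 (RB160 minus NA, SE 0.132, adjusted p = 0.585). Across prefixes themselves, in contrast, Pdgfra was 6.87-fold higher in RB160 than in NA libraries (log2 difference 2.78, SE 0.0739, adjusted p = 3.52e-12).

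The 250 bases before the RefSeq start of Pdgfra are shown because its mRNA changed most and because the study's title names the C/EBP transcription factors. In rat vascular smooth muscle cells C/EBP delta is known to act on the Pdgfra promoter. The window is chr5:75152001-75152250 (GRCm38.p6, plus strand, RefSeq), and capitals mark the single match to the C/EBP motif TTGCNNAA (both strands searched).
Pdgfra: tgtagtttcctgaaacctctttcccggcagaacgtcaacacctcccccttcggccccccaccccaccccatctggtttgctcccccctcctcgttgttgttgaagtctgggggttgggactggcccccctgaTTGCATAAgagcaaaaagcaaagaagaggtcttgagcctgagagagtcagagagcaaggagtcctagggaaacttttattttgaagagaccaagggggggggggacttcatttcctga
The match TTGCATAA begins 118 bases before the start. Of 32851 RefSeq promoter windows of this length, 9.56% held such a match. Promoters of 4 of the 6 genes were in the RefSeq table (5 windows, with 2 starts for Pdgfa), and no other of these windows matched. A match of letters is a description of the window, and binding was not measured.

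Pdgfrb encodes the beta receptor (ENSMUSG00000024620, chromosome 18, 61045150 to 61085061, plus strand), which pericytes and smooth muscle cells also carry. Without IL-17 it had 241, 89.6 and 89.9 CPM in Imp2 siRNA libraries 1 to 3, against 327, 126 and 132 CPM in control siRNA libraries. With IL-17 it had 185, 80.7 and 78.2 CPM in Imp2 siRNA libraries, against 261, 117 and 109 CPM in control siRNA libraries. Every Imp2 siRNA library was again below every control siRNA library of its prefix. Pdgfrb fell by 0.50 on the log2 scale without IL-17 (SE 0.0577, adjusted p = 2.07e-05) and by 0.50 with it (SE 0.0580, adjusted p = 1.89e-05). The fall was smaller than that of Pdgfra, and the ratios within prefixes lay between -0.52 and -0.44 over both comparisons. Pdgfrb was 2.46-fold higher in RB160 than in NA libraries (log2 difference 1.30, SE 0.0416, adjusted p = 8.17e-12).

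Among the ligand genes, Pdgfa (ENSMUSG00000025856, chromosome 5, 138976014 to 138997370, minus strand), whose product acts on the alpha receptor, rose in both comparisons. Without IL-17 it had 47.8, 79.4 and 78.6 CPM in Imp2 siRNA libraries 1 to 3, against 27.9, 48.6 and 50.5 CPM in control siRNA libraries. With IL-17 it had 49.9, 80.1 and 77.3 CPM in Imp2 siRNA libraries, against 31.0, 56.6 and 53.6 CPM in control siRNA libraries. Within a prefix the Imp2 siRNA libraries were all above the control siRNA libraries. Pdgfa rose by 0.71 on the log2 scale (SE 0.0559, adjusted p = 7.58e-07) in cells without IL-17, and by 0.57 (SE 0.0555, adjusted p = 4.60e-06) in cells given it. Unlike the receptors, Pdgfa was lower in RB160 than in NA libraries (log2 difference -0.76, SE 0.0430, adjusted p = 1.84e-09).

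The 250 bases before the farther upstream of the 2 RefSeq starts of Pdgfa are shown beside those of Pdgfra as the promoter of the ligand gene with the smallest adjusted p. The window is chr5:138994945-138995194 (GRCm38.p6, minus strand, RefSeq). Capitals mark 2 matches to the GC box GGGCGG, here on the opposite strand as CCGCCC.
Pdgfa: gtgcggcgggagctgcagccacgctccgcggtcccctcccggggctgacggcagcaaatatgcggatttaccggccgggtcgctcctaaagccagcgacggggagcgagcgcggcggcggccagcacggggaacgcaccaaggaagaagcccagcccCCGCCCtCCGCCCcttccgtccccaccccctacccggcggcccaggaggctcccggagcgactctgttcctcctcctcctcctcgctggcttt
The matches begin 93 and 86 bases before the start. The window at the other Pdgfa start held 1 GC box, those of Pdgfra, Pdgfc and Pdgfd held 0, and 32.7% of all windows held at least 1. G and C made up 72.4% of the bases shown for Pdgfa and 54.4% of those for Pdgfra. Searches on both strands for the CCAAT box (CCAAT, in 33.8% of all windows) and the TATA box (TATAAA, in 12.4%) gave 1 match, a TATA box 160 bases before the start of Pdgfd.

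Pdgfb (ENSMUSG00000000489, chromosome 15, 79995900 to 80014808, minus strand) encodes the ligand of both receptors, which endothelial cells and platelets are best known to release. Without IL-17 it had 5.93, 34.6 and 40.2 CPM in Imp2 siRNA libraries 1 to 3, against 2.71, 26.2 and 26.8 CPM in control siRNA libraries. With IL-17 it had 9.90, 47.0 and 52.4 CPM in Imp2 siRNA libraries, against 4.66, 43.8 and 38.1 CPM in control siRNA libraries. The siRNA groups did not overlap within a prefix, but the RB160 library of each group lay far below its NA libraries (6.94-fold lower, log2 difference -2.80, SE 0.142, adjusted p = 2.55e-08). Pdgfb rose by 0.63 (SE 0.168, adjusted p = 0.0164) without IL-17 and by 0.50 (SE 0.162, adjusted p = 0.0362) with it. The first call was lost without Imp2 siRNA replicate 1 (adjusted p = 0.0504) or 3 (adjusted p = 0.0645). The second was lost without Imp2 siRNA with IL-17 replicate 1 (log2 0.31, adjusted p = 0.0730) or 3 (adjusted p = 0.0666), and without control siRNA with IL-17 replicate 1 (adjusted p = 0.125) or 3 (adjusted p = 0.0990), and in the NA libraries alone the value was 0.27 (adjusted p = 0.0276).

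The rise of Pdgfb differed in size between prefixes. Averaged over IL-17, the log2 ratio of Imp2 siRNA to control siRNA was 1.11 in RB160 and 0.39 in NA libraries, and the difference of the effects in the fit was 0.73 (SE 0.137, adjusted p = 0.00289, added after the data were seen). Of all tested genes, 7.97% passed this test. The RB160 counts of Pdgfb were 251 and 448 with Imp2 siRNA, without and with IL-17, against 114 and 237 with control siRNA, while the NA libraries held 896 to 1671 counts.

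Pdgfc (ENSMUSG00000028019, chromosome 3, 81036416 to 81214040, plus strand) encodes a ligand that must be cut by a protease before it can bind the alpha receptor. Without IL-17 it had 53.0, 46.4 and 46.0 CPM in Imp2 siRNA libraries 1 to 3, against 46.0, 38.7 and 38.4 CPM in control siRNA libraries. With IL-17 it had 38.9, 39.1 and 40.4 CPM in Imp2 siRNA libraries, against 34.8, 34.2 and 35.8 CPM in control siRNA libraries. In CPM every Imp2 siRNA library was above every control siRNA library in both comparisons, prefixes together. Without IL-17 the lowest Imp2 siRNA library had 45.99 CPM and the highest control siRNA library 45.96 CPM. In CPM, groups did not overlap for 18.7% of all tested genes without IL-17 and 18.8% with it. For Pdgfc the separation depended on the TMM scaling, and by library totals alone the groups overlapped. Without IL-17, Imp2 siRNA library 3 had 1577 of 37071000 counts and control siRNA library 1 had 1932 of 37772710. With IL-17, Imp2 siRNA library 2 had 1285 of 35466041 counts and control siRNA library 1 had 1769 of 44433699. Pdgfc rose by 0.24 (SE 0.0670, adjusted p = 0.0129) without IL-17, a call lost without Imp2 siRNA replicate 1 (adjusted p = 0.0708). With IL-17 the value was 0.18 (SE 0.0676, adjusted p = 0.0579) and did not pass, but it did without Imp2 siRNA with IL-17 replicate 1 (adjusted p = 0.0253) or control siRNA replicate 1 (adjusted p = 0.0386). Pdgfc was the ligand with the smallest changes with Imp2 siRNA. It was also the 1 gene of the 6 with no called difference between prefixes (log2 0.11, SE 0.05001, adjusted p = 0.0726).

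Pdgfd (ENSMUSG00000032006, chromosome 9, 6168612 to 6378843, plus strand), whose product acts on the beta receptor after cleavage, was the ligand gene with the fewest counts, 78 to 207 a library. Without IL-17 it had 3.36, 6.05 and 5.95 CPM in Imp2 siRNA libraries 1 to 3, against 3.04, 2.95 and 3.58 CPM in control siRNA libraries. With IL-17 it had 1.99, 3.71 and 5.49 CPM in Imp2 siRNA libraries, against 2.32, 2.07 and 3.12 CPM in control siRNA libraries. NA libraries with Imp2 siRNA were above NA libraries with control siRNA in both comparisons, while the RB160 libraries differed little without IL-17 and went the other way with it. The pooled values were 0.63 (SE 0.241, adjusted p = 0.0623) and 0.50 (SE 0.250, adjusted p = 0.149), and neither passed. DESeq2 called the value without IL-17 (0.63, adjusted p = 0.0389), as did edgeR with only the compared groups (0.64, adjusted p = 0.0184). In the NA libraries alone they were 0.87 (adjusted p = 0.00583) and 0.82 (adjusted p = 0.0114). Averaged over IL-17 the log2 ratio was -0.041 in RB160 and 0.86 in NA libraries, and the difference of the effects was -0.89 (SE 0.260, adjusted p = 0.0471). The value without IL-17 passed when control siRNA replicate 1 (adjusted p = 0.0270), Imp2 siRNA with IL-17 replicate 1 (0.0240) or 3 (0.0266), or control siRNA with IL-17 replicate 2 (0.0433) was left out, each as an adjusted p. The value with IL-17 passed when the fit was made without Imp2 siRNA with IL-17 replicate 1 (0.75, adjusted p = 0.0297), but was 0.21 without replicate 3 of that group (adjusted p = 0.559) and 0.29 without control siRNA with IL-17 replicate 2 (adjusted p = 0.430). Pdgfd was lower in RB160 than in NA libraries (log2 difference -0.57, SE 0.187, adjusted p = 0.0160), a call lost without Imp2 siRNA replicate 1 (adjusted p = 0.0854) or Imp2 siRNA with IL-17 replicate 1 (adjusted p = 0.0784).

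**Figure D2:**
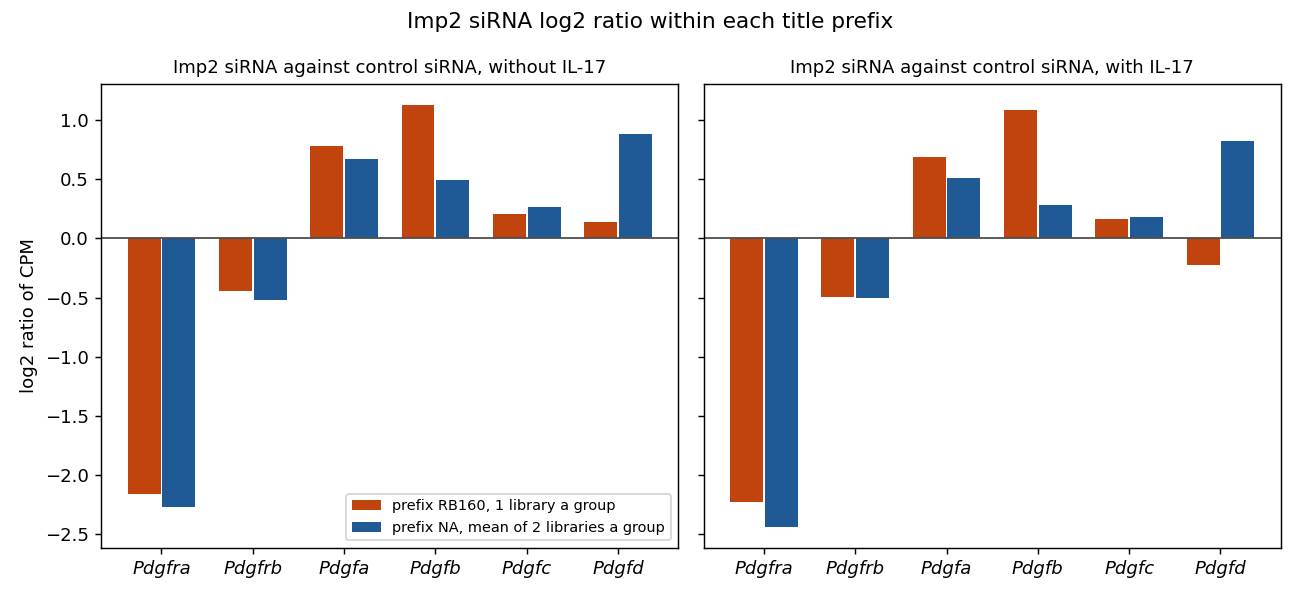
Log2 ratio of CPM, Imp2 siRNA over control siRNA, for each PDGF gene without IL-17 (left) and with IL-17 (right), within title prefix RB160 (1 library a group) and within prefix NA (mean of the log2 values of 2 libraries a group). The bars of Pdgfra, Pdgfrb, Pdgfa and Pdgfc are close in both prefixes, whereas Pdgfb is higher in RB160 (1.13 and 1.09) than in NA (0.49 and 0.28) and Pdgfd the reverse (0.14 and -0.22 in RB160, 0.88 and 0.83 in NA).

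Whether IL-17 changed these genes was asked in each siRNA group. In Imp2 siRNA cells 0 of 6 passed edgeR's test, where 0.452% of all tested genes did. At an unadjusted p under 0.05 there were 3 (7.35% of all tested genes), and DESeq2 called 3 (1.27%). In control siRNA cells 0 of 6 passed, where 0.409% of all genes did, with 4 at an unadjusted p under 0.05 (10.8% of all genes) and 2 called by DESeq2 (1.41%). Pdgfb had the largest values, 0.52 (SE 0.163, adjusted p = 0.387) with Imp2 siRNA and 0.64 (SE 0.167, adjusted p = 0.190) with control siRNA. Its log2 ratio was above 0 in each prefix, at 0.74 in RB160 and 0.41 in NA libraries with Imp2 siRNA, and at 0.78 in RB160 and 0.62 in NA libraries with control siRNA. DESeq2 called it with Imp2 siRNA (0.53, adjusted p = 0.0497) and with control siRNA (0.65, adjusted p = 0.00580). It also passed edgeR's test in control siRNA cells when only the NA libraries (0.63, adjusted p = 0.00390) or only the compared groups (0.66, adjusted p = 0.00106) entered the fit, or without Imp2 siRNA with IL-17 replicate 1 (0.65, adjusted p = 0.0205), and in Imp2 siRNA cells with only the compared groups (0.49, adjusted p = 0.00488). Without Imp2 siRNA with IL-17 replicate 1 the value in Imp2 siRNA cells was 0.32 (adjusted p = 0.791).

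The IL-17 value of Pdgfrb was -0.25 (SE 0.0580, adjusted p = 0.0997) with Imp2 siRNA and -0.24 (SE 0.0575, adjusted p = 0.115) with control siRNA, below 0 in each prefix. DESeq2 called both (adjusted p = 0.0126 with Imp2 siRNA and 0.0153 with control siRNA). That of Pdgfc was -0.29 (SE 0.0672, adjusted p = 0.0867) with Imp2 siRNA, which DESeq2 called (adjusted p = 0.0156), and -0.23 (SE 0.0675, adjusted p = 0.212) with control siRNA. In Imp2 siRNA cells Pdgfc also passed edgeR's test without control siRNA replicate 1 (-0.30, adjusted p = 0.0360), with no low-count filter (-0.29, adjusted p = 0.0480) and with only the compared groups (-0.29, adjusted p = 0.00941), and Pdgfrb with only the compared groups (-0.24, adjusted p = 0.0139). For Pdgfc every library with IL-17 was below every library without it in the same siRNA group in CPM, prefixes together. In CPM, libraries with and without IL-17 did not overlap for 4.89% of all tested genes with Imp2 siRNA and 5.12% with control siRNA. By library totals alone Pdgfc overlapped in control siRNA cells. There library 1 with IL-17 had 1769 of 44433699 counts and library 2 without it had 1417 of 37481186. For Pdgfra the value was 0.08 (SE 0.119, adjusted p = 1.00) with Imp2 siRNA and 0.16 (SE 0.0978, adjusted p = 0.611) with control siRNA. For Pdgfa it was 0.02 (SE 0.0550, adjusted p = 1.00) with Imp2 siRNA and 0.15 (SE 0.0561, adjusted p = 0.324) with control siRNA, and for Pdgfd -0.48 (SE 0.238, adjusted p = 0.732) with Imp2 siRNA and -0.35 (SE 0.251, adjusted p = 0.663) with control siRNA. The direction was the same in both prefixes for 4 of 6 genes with Imp2 siRNA (58.6% of all tested genes) and 6 of 6 with control siRNA (64.6%). NA libraries with and without IL-17 did not overlap for 4 of 6 genes with Imp2 siRNA (36.2% of all tested genes) and 4 of 6 with control siRNA (29.6%).

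The difference of the IL-17 responses (Imp2 siRNA minus control siRNA) was small beside its error for each gene. It was -0.08 (SE 0.154) for Pdgfra, -0.0072 (SE 0.0816) for Pdgfrb, -0.14 (SE 0.0785) for Pdgfa, -0.12 (SE 0.233) for Pdgfb, -0.07 (SE 0.0952) for Pdgfc and -0.13 (SE 0.347) for Pdgfd. By edgeR 0 of 6 passed (adjusted p = 1.00 for each), 0 had an unadjusted p under 0.05 (1.03% of all tested genes) and DESeq2 called 0, and 0% of all tested genes passed by either tool. This does not show that the responses were equal.

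**Figure D3:**
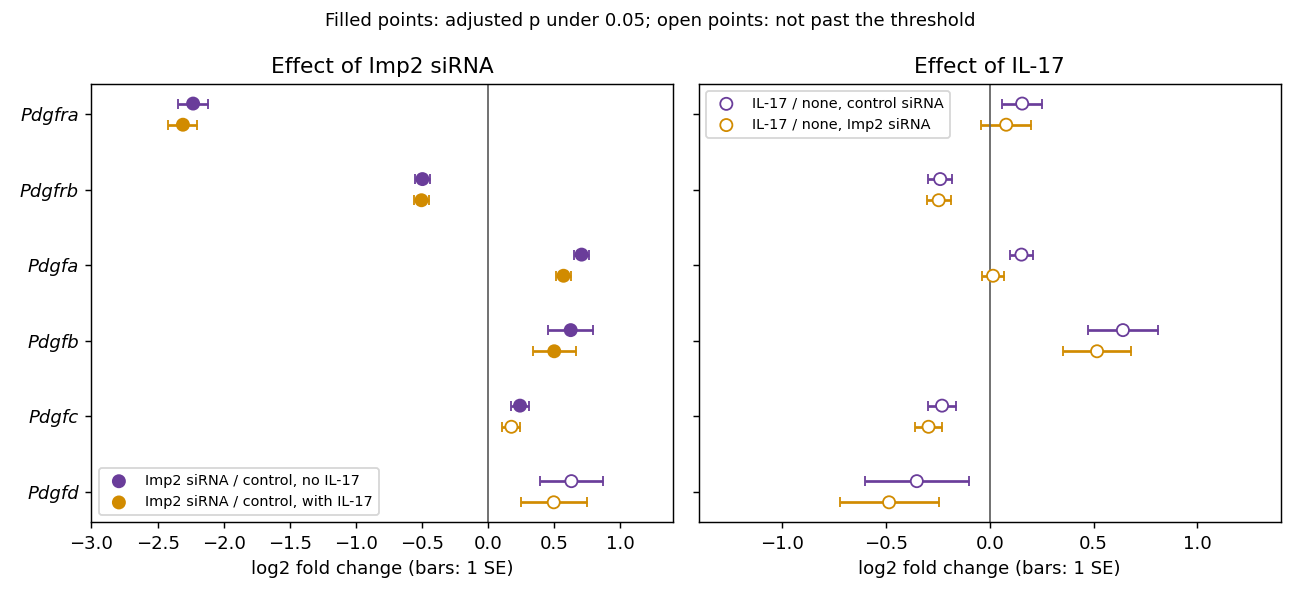
Log2 fold change of each PDGF gene with 1 SE, for Imp2 siRNA over control siRNA (left) and for IL-17 over no IL-17 (right), with filled points where edgeR's adjusted p was under 0.05. The receptor genes lie left of 0 and the ligand genes right of 0 with Imp2 siRNA, and no point is filled for IL-17.

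Likeness over the 12 libraries was taken as Pearson's r of log2(CPM + 1) after the mean of each prefix was subtracted, among 10102 genes with a mean of at least 5 CPM (10103 for Pdgfd, itself below it). The values are a description, and the libraries share the siRNA treatment. The 3 genes most like Pdgfra were Car13 (r = 0.996), Entpd5 (0.995) and Dstyk (0.993), and those most like Pdgfrb were Ctdsp2 (0.988), Tmem119 (0.988) and Papss1 (0.984). For Pdgfa they were Tmem171 (0.990), Psmd8 (0.988) and Gadd45b (0.986), and for Pdgfb Slc20a1 (0.975), Gdpd1 (0.961) and Sipa1l1 (0.959). For Pdgfc Ccdc80 (0.979) and Ptms (0.961) came first, and for Pdgfd the 3 were Plxdc2 (0.949), Ngfrap1 (0.948) and Ankrd46 (0.945). Among the 6 genes themselves Pdgfra and Pdgfa ran in opposite directions (r = -0.962), and Pdgfra and Pdgfrb in the same one (r = 0.856).

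Other genes of the pathway were read from lists, whose counts stand against 32.4% of all tested genes past the threshold without IL-17 and 33.3% with it. Of 6 tested proteases that cut PDGF ligands, 3 rose and 1 fell with Imp2 siRNA, both without and with IL-17. Plat, the tissue plasminogen activator that activates PDGF-C, fell (30.8 ± 9.27 CPM with Imp2 siRNA and 81.4 ± 11.7 CPM with control siRNA, SD, n = 3 each, log2 -1.42, adjusted p = 0.000152; with IL-17 -1.48). Plau, the urokinase that activates PDGF-D, rose (176 ± 19.1 CPM with Imp2 siRNA and 127 ± 22.4 CPM with control siRNA, n = 3 each, 0.47, adjusted p = 0.000666; with IL-17 0.46). The proprotein convertase gene Pcsk6 rose as well (0.67 and 0.69).

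Of 6 co-receptor and receptor-like genes 1 rose and 1 fell in each comparison. Cspg4, the NG2 proteoglycan that binds PDGF-A and marks pericytes, rose by 1.22 (444 ± 136 CPM with Imp2 siRNA and 190.2 ± 56.9 CPM with control siRNA, n = 3 each, adjusted p = 1.21e-07; with IL-17 1.23). Pdgfrl, a receptor-like gene without the kinase part, fell by 0.94 on the log2 scale (4.96 ± 0.625 CPM with Imp2 siRNA and 9.59 ± 0.511 CPM with control siRNA, n = 3 each, adjusted p = 8.51e-05), with -0.83 after IL-17. Nrp1, the neuropilin co-receptor, was the 1 gene of these lists that passed with IL-17 in Imp2 siRNA cells, at -0.39 (75.5 ± 7.00 CPM with IL-17 and 98.6 ± 5.72 CPM without, n = 3 each, adjusted p = 0.0290). In control siRNA cells its IL-17 value was close, at -0.32, but did not pass (adjusted p = 0.0881). The receptor kinases of the same class did not pass, with Kit at -0.75 (adjusted p = 0.109) and Csf1r at 0.34 (adjusted p = 0.365), and Flt3 was not tested. Of 5 tested VEGF family ligands, relatives of the PDGFs, 2 rose and 2 fell without IL-17 and 2 rose and 1 fell with it, among them Vegfd (-0.87 and -1.02) and Vegfa (0.53 and 0.50). Vegfa was also the 1 gene of the lists that rose with IL-17 in control siRNA cells (0.50, adjusted p = 0.0477). In Imp2 siRNA cells its IL-17 value was close, at 0.46, but did not pass (adjusted p = 0.0622).

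Signal transducers moved both ways. Of 32 tested, 8 rose and 5 fell without IL-17 and 10 rose and 5 fell with it, and the medians were 0.01 and 0.05. The Src family kinase gene Fyn rose (1.11 and 1.00), and Stat5a (-1.12 and -1.15) and Stat3 (-0.95 and -0.98), transcription factors that receptor kinases can activate, fell. Of 11 negative regulators 1 rose and 1 fell without IL-17 and 1 rose and 2 fell with it, with the adaptor gene Grb10 at 0.22 and 0.23 and the phosphatase gene Ptpn2 at -0.28 and -0.41. The phosphatase gene Ptprj fell with Imp2 siRNA in cells given IL-17 (-0.28, adjusted p = 0.0203). Of 17 genes that growth factors induce early, 7 rose and 5 fell without IL-17 and 7 rose and 4 fell with it. The transcription factor genes Egr3 (-1.37 and -1.54) and Fos (-1.31 and -1.22) fell.

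**Figure D4:**
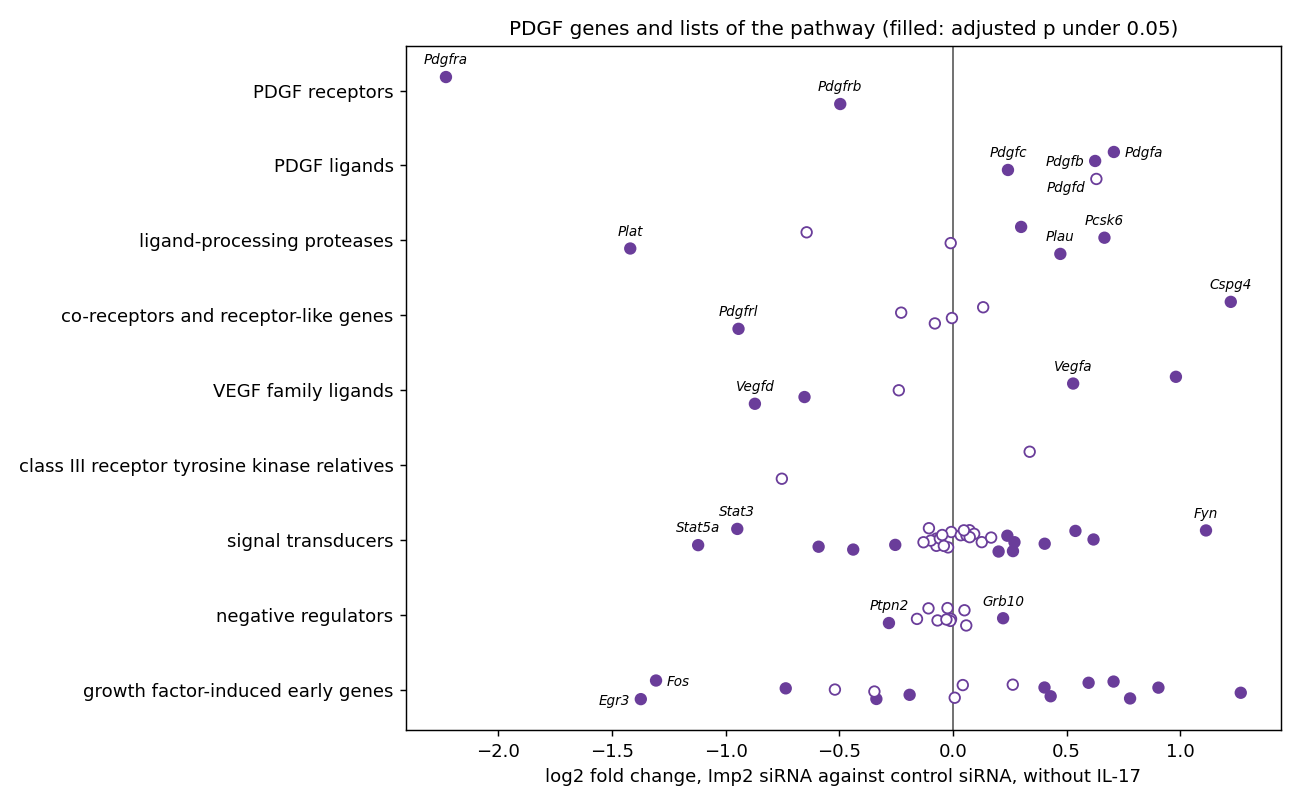
Log2 fold change of Imp2 siRNA against control siRNA without IL-17, 1 point a tested gene, for the PDGF genes and the lists of the pathway, spread vertically within a list for legibility, with filled points where edgeR's adjusted p was under 0.05. Pdgfra at -2.23 lies furthest from 0, and the signal transducers, negative regulators and early genes lie on both sides of 0.

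Markers of the cells that carry or make PDGFs moved with Imp2 siRNA too. The summed level of 10 smooth muscle and pericyte markers was 11066, 20490 and 20659 CPM (lowest, median and highest library) with Imp2 siRNA, against 5561, 10066 and 10411 CPM with control siRNA. With IL-17 it was 9101, 19041 and 19440.5 CPM with Imp2 siRNA, against 4198, 8635 and 10027 CPM with control siRNA. The sum was mostly Acta2 and Tagln (medians 6344 and 2918 CPM over all 12 libraries), while Myh11, Rgs5 and Des had medians of 1.24, 1.59 and 1.16 CPM. Of 8 markers tested, 5 rose and 2 fell without IL-17 and 5 rose and 1 fell with it. Those that rose were Acta2, Tagln, Cnn1, Cspg4 and Myh11 in both comparisons. Rgs5, a pericyte gene, fell without IL-17 (-1.22, adjusted p = 0.00152) and with it (-1.22, adjusted p = 0.00116). Notch3, a receptor of vascular smooth muscle cells, fell without IL-17 (-0.39, adjusted p = 0.00465) and was -0.23 with it (adjusted p = 0.0601), and both genes were named after their values were seen. Kcnj8 and Abcc9, which mark pericytes, had at most 8 and 7 counts in any library. Of 10 fibroblast markers 2 rose and 5 fell in each comparison. Col1a1 (0.32 without and 0.33 with IL-17) and Fn1 (0.31 and 0.31) rose. Dcn (-2.65 and -2.83), Lum (-2.33 and -2.85), Prrx1 (-0.89 and -0.93), Col3a1 (-0.72 and -0.85) and Col1a2 (-0.18 and -0.19) fell. The sum of the 10 was mostly Fn1, Col1a1, Col1a2 and Vim. Without IL-17 it was 35436 to 37795 CPM with Imp2 siRNA and 31828 to 33435 CPM with control siRNA. With IL-17 it was 29811 to 35254 CPM with Imp2 siRNA and 27110 to 31738 CPM with control siRNA. The part of all these markers in the changes of the PDGF genes was not tested, and in bulk RNA fewer cells of a type and less RNA per cell cannot be told apart.

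Of the markers of other sources, Tubb3 (30.7 to 55.8 CPM), Ppbp (0.378 to 13.3 CPM), Itga2b (3.69 to 7.54 CPM) and Cd68 (2.52 to 4.54 CPM) reached the highest levels. The others stayed lower, some of them at 0. The sum over 4 endothelial markers was 0.520 to 1.17 CPM in Imp2 siRNA libraries and 0.523 to 1.50 CPM in control siRNA libraries without IL-17, and 0.574 to 0.941 CPM in Imp2 siRNA libraries and 0.688 to 1.14 CPM in control siRNA libraries with it. The glial markers Olig1 and Olig2, the macrophage marker Adgre1 and the platelet marker Gp9 had 0 counts in all 12 libraries, which allows up to 3 counts a library, for counting error only. The sum over 5 macrophage markers was 3.81 to 6.09 CPM over all 12 libraries, and that over 4 epithelial markers 0.438 to 3.31 CPM. The neural and glial sum, nearly all Tubb3, was 32.3 to 40.2 CPM with Imp2 siRNA and 32.6 to 56.0 CPM with control siRNA without IL-17. The sum over 4 platelet and megakaryocyte markers was lower with Imp2 siRNA, at 4.85 to 5.25 CPM with Imp2 siRNA against 8.97 to 13.3 CPM with control siRNA without IL-17, and at 4.29 to 4.99 CPM with Imp2 siRNA against 8.47 to 18.6 CPM with control siRNA after IL-17, and was nearly all Ppbp and Itga2b. Of the tested genes of these lists, 1 of 2 endothelial genes fell without IL-17 and 0 with it, 1 of 3 epithelial genes rose and 1 fell without IL-17 and 2 rose and 1 fell with it, and 1 of 2 platelet genes fell without IL-17 and 2 with it. The platelet genes were Ppbp (-3.46 without and -3.36 with IL-17) and Itga2b (-0.37, not past the threshold, and -0.54). By edgeR 0 of 2 macrophage and 0 of 2 neural genes passed in either comparison. Between prefixes the smooth muscle and pericyte sum, mostly Acta2 and Tagln, was 4198 to 11066 CPM in the 4 RB160 libraries and 8635 to 20659 CPM in the 8 NA libraries. The endothelial sum was 0.520 to 0.688 CPM in RB160 and 0.881 to 1.50 CPM in NA libraries. The epithelial sum was 2.18 to 3.31 CPM in RB160 and 0.438 to 1.63 CPM in NA libraries. The neural and glial sum was 31.6 to 35.1 CPM in RB160 and 37.1 to 56.5 CPM in NA libraries. Fibroblast, macrophage and platelet sums overlapped between prefixes. The part of these markers in the prefix differences of the PDGF genes was not tested.

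Which PDGF mRNAs came down with IMP2 was read from the authors' deposited table of IMP2 against IgG, which lists 5294 genes, all at or above 1 on its log2 fold scale. Of the 6 genes, Pdgfa and Pdgfc were listed, and 34.5% of all genes tested in RNA-seq were. In the authors' deposited table Pdgfa had a log2 fold change of 2.88 (SE 0.500, adjusted p = 1.01e-07) at a mean normalized count of 675. That was rank 1184 of the 5294, above 77.6% of the listed genes and above their median of 2.16. Pdgfc had 1.84 (SE 0.486, adjusted p = 0.000629) at a mean normalized count of 142 in the authors' deposited table, above 35.1% of the listed genes. Pdgfra, Pdgfrb, Pdgfb and Pdgfd were not listed, which does not tell a gene that did not pass from one that was not detected. The listed share of the 6 genes was near that of all tested genes.

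**Figure D5:**
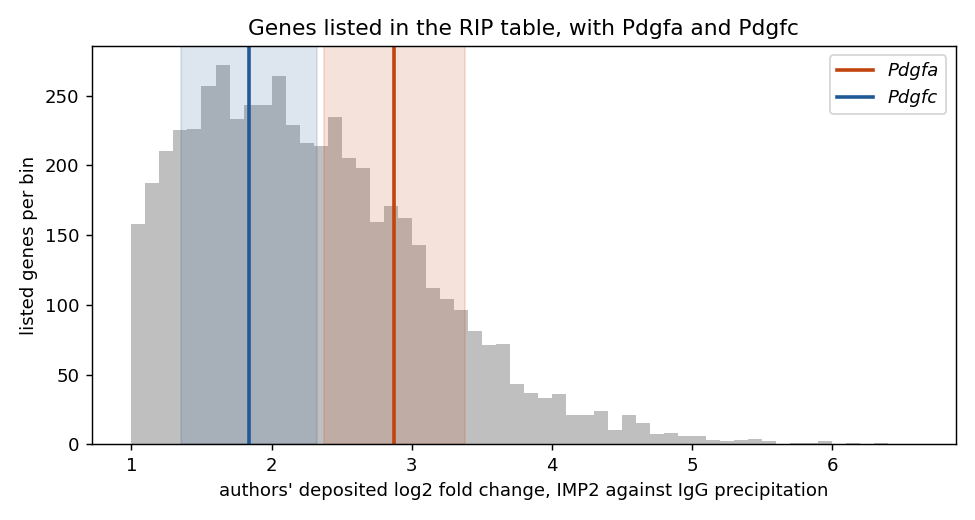
Histogram of the authors' deposited log2 fold change, IMP2 against IgG precipitation, for the 5294 listed genes in bins on the horizontal axis, with vertical lines at Pdgfa (2.88) and Pdgfc (1.84) and bands of 1 SE. Pdgfa lies in the upper and Pdgfc in the lower part of the listed genes, which start at a log2 fold change of 1.

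Of the pathway lists, 2 of 6 tested ligand-processing proteases (Furin and Plau), 0 of 6 co-receptor genes, 0 of 2 related receptor kinases and 3 of 5 VEGF family ligands were in the authors' deposited table. So were 12 of 32 signal transducers, 4 of 11 negative regulators and 7 of 17 early genes.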

How the data were processed

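The authors deposited whole-number gene counts of 12 RNA-seq libraries beside Ensembl IDs, symbols and coordinates. For RIP-seq the authors' deposited table gives, per the file headers, a mean normalized count (a signal value), a log2 fold change with its standard error, a Wald score, a p-value and an adjusted p-value, and every listed gene is at or above 1 (log2) and at or under 0.05 (adjusted p). STAR, DESeq2, CASAVA 1.4 and the build mm10 are in the submitters' processing notes, their roles not given. Libraries were made with Nextera XT (RNA-seq) and SMART-Seq v4 (RIP-seq), per the labels' protocols. Strand is not stated. Other genes overlapping the 6 held at most 21 counts in all.

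Tests on counts used edgeR 4.0.16 under R 4.3.3 (filterByExpr, TMM, robust quasi-likelihood test, group plus title prefix, all 12 libraries, Benjamini-Hochberg over 13702 genes, threshold 0.05). SE was derived from the F statistic (|log2| over its root). Alternatives were DESeq2 1.42.0, RLE scaling, other count filters, no prefix term, NA libraries alone, compared groups alone and leaving out each library. The fit was tested on simulated counts with the same dispersion for all genes and siRNA changes equal in both prefixes. It was not tested on siRNA effects that differ between prefixes. Within-prefix ratios used CPM with no pseudocount, and the share of all genes with the same sign used CPM plus 0.5. Replicate numbers of RNA-seq libraries only name them. Named list genes were the up to 3 with the largest change past the threshold and at least 5 CPM on average in either group. The genes, lists and tests were chosen with earlier results of these data known, and the siRNA-by-prefix terms after the data were seen. Levels were not compared between genes, since no transcript lengths were used. Some genes that the naming rule picks are not reported here.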

Additional observations from a re-analysis of the deposited data

Results flagged for a closer look

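The effect of Imp2 siRNA on Pdgfb differed between libraries of the title prefixes, by 0.73 on the log2 scale (RB160 minus NA, SE 0.137, adjusted p = 0.00289), with a log2 ratio of 1.11 in RB160 and 0.39 in NA libraries. The effect on Pdgfd differed the other way, by -0.89 (SE 0.260, adjusted p = 0.0471), with -0.041 in RB160 and 0.86 in NA libraries. The other 4 genes did not pass this test, with differences of 0.14 for Pdgfra, 0.05 for Pdgfrb, 0.14 for Pdgfa and -0.04 for Pdgfc. Of all tested genes, 7.97% passed it. The test was added after the data were seen, and RB160 had 1 library a group, so that its own spread within a group is not known.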

How the results depend on the processing

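The falls of Pdgfra and Pdgfrb and the rise of Pdgfa with Imp2 siRNA passed the test under every alternative run except the model without the prefix term. Without that term 0 of 6 genes passed in either siRNA comparison (Pdgfra -2.18 and -2.26, with adjusted p = 0.469 and 0.454), and 303 and 318 of all genes passed, against 4446 and 4558 with it. With libraries left out in turn, the count of PDGF genes past the threshold ranged from 3 to 6 (5 in the full fit) without IL-17, from 3 to 5 (4 in the full fit) with IL-17, from 0 to 1 (0) for IL-17 in Imp2 siRNA cells, from 0 to 1 (0) for IL-17 in control siRNA cells and from 4 to 6 (5) between prefixes. The call of Pdgfb with IL-17 was also lost with no low-count filter (adjusted p = 0.0871) and with the compared groups alone (adjusted p = 0.0757). For IL-17 in Imp2 siRNA cells the count was 3 with DESeq2, 1 with no low-count filter and 3 with the compared groups alone, where all genes numbered 62 in the full fit, 171 with DESeq2, 110 with no low-count filter, 370 with the compared groups alone and 2 without the prefix term. In control siRNA cells the count was 2 with DESeq2, 1 with NA libraries alone and 1 with the compared groups alone, where all genes numbered 56, 193 with DESeq2, 95 with no low-count filter, 152 with the compared groups alone and 1 without the prefix term. Leaving out libraries moved these all-gene counts between 8 and 116 in Imp2 siRNA cells and between 6 and 113 in control siRNA cells.

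In NA libraries alone the IL-17 value in Imp2 siRNA cells turned to -0.0657 for Pdgfra and -0.0041 for Pdgfa, and the difference of responses to 0.0201 for Pdgfrb, none past the threshold. With libraries left out in turn, values near 0 changed sign: for IL-17 in Imp2 siRNA cells from -0.0700 to 0.20 for Pdgfra and from -0.0303 to 0.0503 for Pdgfa, and for the difference of responses from -0.23 to 0.0363 for Pdgfra, from -0.0463 to 0.0501 for Pdgfrb, from -0.32 to 0.0044 for Pdgfb and from -0.43 to 0.10 for Pdgfd. Of 660 recomputed values of the 6 genes, 597 kept direction and side of the threshold, 20 lost the call, 28 gained it and 15 changed sign. These values pool all comparisons, among them those in which none of the 6 genes passed in the full fit. Many come from refits that share most libraries, so the tally does not measure how firm the siRNA calls are. At a log2 fold change of at least 2 in the RIP table, 1 of the 2 genes, Pdgfa, stayed listed. The cause of these shifts was not tested. No paired analysis was possible because the labels number the RNA-seq libraries through all groups, so that the replicate numbers used here only name libraries, and the RIP table has no values per library. At 78 to 207 counts a library, Pdgfd had the largest SE of the 6 genes in the siRNA comparisons, 0.241 and 0.250.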
